A study of Homo sapiens with 6 samples.

Results

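RNA crosslinked to the HA-tagged protein AEG-1 was mapped by 2 crosslinking methods in the same cell line, and the site lists of the 2 HITS-CLIP AEG1 libraries are set here against that of the single PAR-CLIP AEG1 library, transcript by transcript. These libraries were chosen by their titles and are 3 of the 6 in the series; they hold 72114 of its 72385 sites. All 6 came from AEG-1-14, a line derived from cells that the labels call HepG3 and class as hepatoblastoma, which stably overexpresses AEG1 with a C-terminal HA tag. HITS-CLIP cells were crosslinked at 254 nm and PAR-CLIP cells at 365 nm, and the other 3 libraries, 2 for HITS-CLIP and 1 for PAR-CLIP, were made from the line without irradiation and serve as negative controls. The tagged protein is therefore present in the controls too, and every library describes an overexpressed protein in 1 line. Nothing in the labels says that the HITS-CLIP replicates were separate cultures, so the spread between them may be technical, and PAR-CLIP has no replicate. An exact permutation test of 2 libraries against 1 has too few arrangements to give a small p. With the one-sided p doubled, that test cannot fall below 0.667. The methods are therefore compared by the size of each difference, with the difference between the HITS-CLIP replicates beside it and no p-value.

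AEG-1, the product of MTDH, sits in the membrane of the endoplasmic reticulum (ER), is overexpressed in many liver cancers and binds mRNA. Messages for secreted and membrane proteins are translated at the ER surface, while most messages for cytosolic and nuclear proteins are translated on free ribosomes. In CLIP, ultraviolet light joins a protein to the RNA it touches, RNase trims the exposed RNA and the protected fragments are sequenced; HITS-CLIP relies on natural bases, and PAR-CLIP commonly feeds cells a photoreactive nucleoside that absorbs longer wavelengths, which the labels do not name here.

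A site is a stretch of a RefSeq mRNA that the authors listed, and positions are in nucleotides (nt) from the start of that mRNA. HITS-CLIP AEG1 replicate 1 held 6378 sites on 1862 transcripts, replicate 2 held 5651 on 1702, and PAR-CLIP AEG1 held 60085 on 8009. The unirradiated controls held from 60 to 121 sites. Read depth was not analysed here, since the lists carry no read counts. All 9 hepatocyte lineage markers examined (among them ALB, AFP and TTR) had sites in each of the 3 AEG1 libraries, and 0 of 11 defining markers of blood cells, endothelium and connective tissue had a site in any of them. In a longer list of 24 such markers, 4 had a PAR-CLIP site, and LYZ and CD68, which other tissues also express, had sites in all 3 libraries.

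Nearly every transcript found by both HITS-CLIP replicates was also found by PAR-CLIP, while PAR-CLIP listed many more. Sites of both HITS-CLIP replicates lay on 1321 transcripts, and PAR-CLIP placed a site on 1244 of these (94.2%, exact Clopper-Pearson 95% interval 92.8 to 95.4, which covers counting error only, as do the other intervals). Among the 8204 transcripts with a site in any library, 97.6% had a PAR-CLIP site. PAR-CLIP itself brought most of them into that count, so the 97.6% is no independent yardstick for the 94.2%. In the other direction, the same 1244 transcripts made up 15.5% of those with a PAR-CLIP site (14.7 to 16.3). The HITS-CLIP replicates shared 70.9% of the transcripts of replicate 1 and 77.6% of those of replicate 2. Transcripts seen in replicate 1 alone had a PAR-CLIP site in 478 of 541 cases (88.4%), and those seen in replicate 2 alone in 328 of 381 (86.1%). The 1244 transcripts with a site in all 3 AEG1 libraries are called shared transcripts below; they held 92.7% and 94.5% of the nt covered in the HITS-CLIP replicates and 33.4% of those covered in PAR-CLIP. A control site lay on 111 of them (8.92%), and on 144 of the 8204 transcripts with a site in any library.

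The 77 transcripts found by both HITS-CLIP replicates without a PAR-CLIP site carried few and short sites. Replicate 1 had a single site on 70 of them and replicate 2 on 72, and the median site width was 23 and 24 nt, against 53 nt on shared transcripts in each replicate. Sites of at most 25 nt made up 55.8% and 53.7% of sites there, against 4.30% and 4.39% on shared transcripts. The replicates nevertheless overlapped in place on 74 of the 77. A control site lay on 4 of the 77 (5.19%). With the most sites among them were A1BG, a plasma glycoprotein, with 2 sites in each replicate covering 99 and 98 nt, HLA-G, an MHC class I protein whose sequence resembles that of its relatives, with 4 and 2 sites covering 173 and 126 nt, PRAP1, with 2 sites in each covering 85 and 121 nt, and CPEB2, a regulator of poly(A) tails, with 2 sites in each covering 58 and 57 nt. The single sites of ADAM11 were 18 nt wide in both replicates and those of ADGRG3, an adhesion receptor, 20 and 23 nt.

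PAR-CLIP alone listed 5959 transcripts (74.4% of its own), with a median of 4 sites and 310 covered nt each; on shared transcripts the medians were 9 sites and 1254 nt. The largest by covered nt coded mainly for nuclear and cytosolic proteins. PRPF8, the core protein of the spliceosome, had 32 PAR-CLIP sites over 6372 nt and none in HITS-CLIP. The cytoskeletal linker MACF1 had 62 sites over 5019 nt, the nuclear pore protein NUP205 had 41 over 4804 nt, and TRRAP, a subunit of histone acetyltransferase complexes, had 60 over 4759 nt. CNOT1, the scaffold of the CCR4-NOT deadenylase, had 55 sites over 4478 nt, POLR2A, the largest subunit of RNA polymerase II, had 28 over 4264 nt, and LARP1, which binds messages for ribosomal proteins, had 40 over 4255 nt. Each of these was at 0 in both HITS-CLIP lists and in all 3 controls. A control site lay on 0.201% of the transcripts found by PAR-CLIP alone.

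PAR-CLIP sites were wider. Median width was 51 nt in HITS-CLIP replicate 1 (interquartile range 38 to 71), 52 nt in replicate 2 (39 to 72) and 73 nt in PAR-CLIP (54 to 105). On shared transcripts alone the medians were 53, 53 and 86 nt. Sites of at least 300 nt were 33 of 5668 on shared transcripts in replicate 1 (0.582%), 23 of 5153 in replicate 2 (0.446%) and 1028 of 14709 in PAR-CLIP (6.99%). Taken transcript by transcript, the median width in PAR-CLIP was 1.94 times that in HITS-CLIP (median log2 ratio 0.95, interquartile range 0.59 to 1.43), and the log2 ratio between the HITS-CLIP replicates had a median of 0 (-0.25 to 0.24). HSPA8 and HSP90AA1, abundant cytosolic chaperones, had 1 PAR-CLIP site each, of 2227 and 2897 nt, where HITS-CLIP listed 16 and 9 sites on HSPA8 and 7 and 8 on HSP90AA1.

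**Figure D1:**
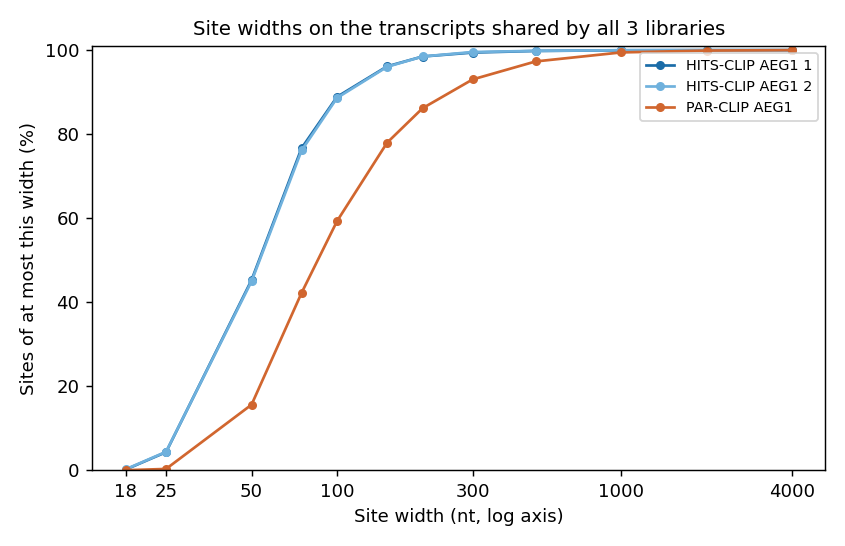
Cumulative share of sites (y axis, percent) up to each width (x axis, nt, log scale) on the 1244 shared transcripts, 1 line per AEG1 library. The HITS-CLIP lines lie on each other with medians of 53 nt, and the PAR-CLIP line lies to their right with a median of 86 nt and a tail above 300 nt.

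Where HITS-CLIP placed a site, PAR-CLIP usually placed one too. PAR-CLIP sites overlapped 90.2% of the sites of HITS-CLIP replicate 1 (89.5 to 91.0) and 90.4% of those of replicate 2 (89.6 to 91.2) by at least 1 nt. On shared transcripts these shares were 94.3% in each, and PAR-CLIP sites covered 50.2% of the nt up to the furthest site end, so a large share of any site set placed on these messages would meet a PAR-CLIP site. Sites of the unirradiated HITS-CLIP controls were overlapped by PAR-CLIP in 73.3% and 66.7% of cases. Between the HITS-CLIP replicates, 63.2% of the sites of replicate 1 met one of replicate 2, and 71.3% of those of replicate 2 met one of replicate 1. HITS-CLIP sites that the other replicate lacked were inside PAR-CLIP sites almost as often (93.0% in replicate 1 and 92.4% in replicate 2) as sites that it shared (94.9% and 94.8%). Of the 14709 PAR-CLIP sites on shared transcripts, 26.2% met a HITS-CLIP site of either replicate.

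The maps of 6 messages show how the patterns differed between genes. On APOB (NM_000384), the structural protein of very low density lipoprotein, HITS-CLIP replicate 1 listed 98 sites, replicate 2 listed 97, and PAR-CLIP listed 23 that together covered 97.7% of the message up to its last site. C3 (NM_000064), the central complement protein, had 24 and 21 HITS-CLIP sites and 4 PAR-CLIP sites, the highest-scoring of which ran from nt 3 to 3411. On F10 (NM_000504), the clotting factor X, only 29.2% and 34.3% of HITS-CLIP nt lay in PAR-CLIP sites, and the highest-scoring sites lay apart, at nt 1056 to 1154 and 1063 to 1150 in HITS-CLIP and at nt 393 to 476 in PAR-CLIP. MTDH (NM_178812) itself, overexpressed in this line, had 10 and 8 HITS-CLIP sites covering 710 and 524 nt and 12 PAR-CLIP sites covering 2370 nt. Its highest-scoring HITS-CLIP site started at nt 942 in both replicates and lay inside the highest-scoring PAR-CLIP site, nt 833 to 2107. The unirradiated PAR-CLIP control also had a site at this place, nt 885 to 991, while the HITS-CLIP controls had no site on MTDH. SND1, a known partner protein of AEG-1, had 1 and 0 HITS-CLIP sites and 16 PAR-CLIP sites. FAT1 (NM_005245), a giant cadherin, had 12 and 14 HITS-CLIP sites against 66, and GCN1 (NM_006836), a ribosome-binding activator of the amino acid starvation kinase, 5 and 3 against 49.

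**Figure D2:**
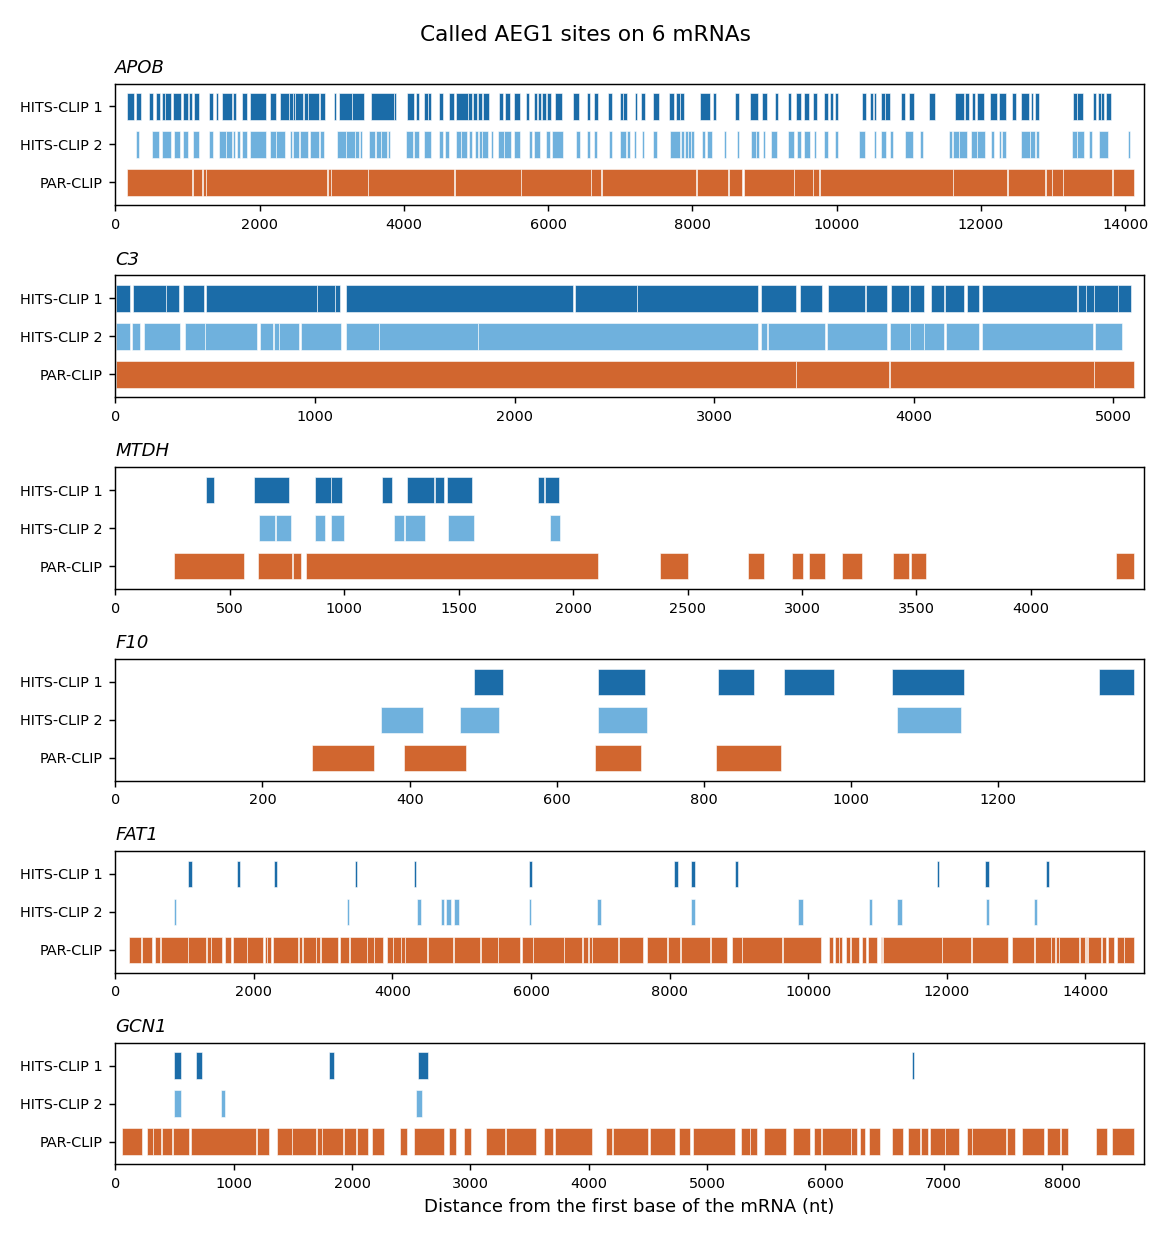
Sites on the mRNAs of APOB, C3, F10, MTDH, FAT1 and GCN1 (x axis, nt from the start of the mRNA), with 1 row of boxes per AEG1 library, each box drawn to scale. APOB is tiled by wide PAR-CLIP sites over many narrow HITS-CLIP sites. C3 is covered almost end to end in every library, with HITS-CLIP sites as wide as 1141 and 1401 nt in replicates 1 and 2. F10 has HITS-CLIP sites near its end where PAR-CLIP has none, and on FAT1 and GCN1 the 66 and 49 PAR-CLIP sites fill most of the message while HITS-CLIP sites are sparse.

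HITS-CLIP sites outside any PAR-CLIP site were a small and short group. On shared transcripts they numbered 321 in replicate 1, on 256 transcripts, and 295 in replicate 2, on 251. Their median widths were 37 and 34 nt, against 54 and 55 nt for sites inside PAR-CLIP, and 27.7% and 29.5% of them were at most 25 nt wide, against 2.90% and 2.86%. An unirradiated HITS-CLIP control site overlapped 4.98% and 4.75% of them, against 0.916% and 1.17% of the sites inside PAR-CLIP. Among sites of at most 25 nt these shares were 13.5% and 11.5% outside against 13.5% and 17.3% inside, so the contrast was not present at equal short width. Among the 463 shared transcripts with at least 3 sites in each library, at least 90% of the HITS-CLIP nt of both replicates lay in PAR-CLIP sites on 377 (81.4%). The share was under 50% in both replicates on 4 of them, named here because their values were seen: ZFHX3, a transcription factor, with 28.3% and 21.3%, F10, C6, a component of the complement pore, with 28.2% and 40%, and MEP1A, a membrane metalloprotease, with 29.1% and 46.2%. PAR-CLIP covered 2.45% of the message of ZFHX3 up to its furthest site, and 23.0% of F10, 31.0% of C6 and 15.4% of MEP1A.

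Along the message, HITS-CLIP sites lay further toward the start. Position is given as a share of the span, the distance to the end of the last site in any of the 6 libraries, which PAR-CLIP set in 95.3% of shared transcripts, so that the last stretch of this scale favours PAR-CLIP by construction. The median site position was 0.430 and 0.431 in the HITS-CLIP replicates and 0.547 in PAR-CLIP. In nt, where this scale plays no part, the median transcript had its sites centred at nt 911 and 889 in HITS-CLIP and at nt 1312 in PAR-CLIP. PAR-CLIP reached further toward the end of the message than both replicates on 1167 of 1244 transcripts (93.8%), by a median of 656.5 nt, and further toward its start on 1019 (81.9%), by 176.5 nt. A larger number of sites reaches further in both directions, and the median position was further toward the end in PAR-CLIP than in both replicates on 738 transcripts (59.3%) and further toward the start on 315 (25.3%). With the span cut into 10 equal bins, HITS-CLIP coverage was highest in bin 4, at 17.6% of its nt in replicate 1 and 16.1% in replicate 2, and was 6.18% and 5.67% in bin 10. PAR-CLIP covered 62.9% of bin 4 and 61.3% of bin 10. On 224 shared messages of the endomembrane lists described later, coverage in bins 4 and 10 was 35.1% and 10.4% in replicate 1, 33.4% and 10.2% in replicate 2 and 80.3% and 66.7% in PAR-CLIP. On 102 of the cytosol and nucleus lists it was 19.2% and 5.02%, 14.5% and 3.53%, and 82.6% and 75.2%, so PAR-CLIP covered both groups about equally in bin 4 while both HITS-CLIP replicates covered the endomembrane group more.

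**Figure D3:**
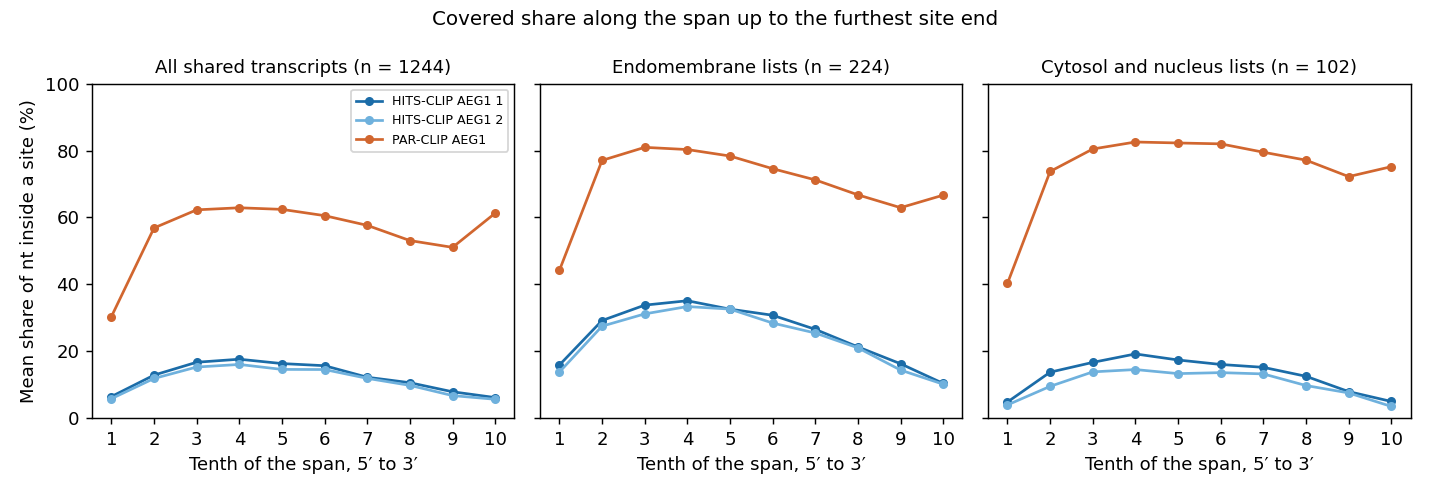
Mean share of nt covered (y axis, percent) in each of 10 equal bins from the start of the mRNA to the end of its last site (x axis), per AEG1 library, for all shared transcripts and for the endomembrane and the cytosol and nucleus gene lists. HITS-CLIP coverage peaks near the middle and is lowest in the first and last bins, and PAR-CLIP coverage stays above 50% from bin 2 on over all shared transcripts.

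The PAR-CLIP sites that HITS-CLIP also found differed from the rest of the PAR-CLIP sites on the same message. The deposited score is on a log2 scale relative to a constant of each transcript. Scores are therefore compared within a transcript only, apart from sums over transcripts and a filter on each library's median score, both given further below. On 1026 transcripts with PAR-CLIP sites of both kinds, the median score of overlapped sites was 1.61 higher than that of the others (interquartile range 0.65 to 2.58) and was higher on 900 (87.7%). They were also wider, by a median log2 ratio of 0.95, and lay closer to the start, by 0.19 of the span; wide sites meet other sites more easily, and the part of width in this was not tested. Among the 463 transcripts with at least 3 sites in each library, the highest-scoring PAR-CLIP site met a HITS-CLIP site on 416 (89.8%), with a median width of 439 nt, and the lowest-scoring one on 84 (18.1%), with a median width of 53 nt. The highest-scoring HITS-CLIP site lay on the highest-scoring PAR-CLIP site in 307 of 640 transcripts with at least 2 sites in each library (48.0%, 44.0 to 51.9) for replicate 1 and in 291 (45.5%, 41.6 to 49.4) for replicate 2. The highest-scoring sites of the HITS-CLIP replicates met each other in 278 (43.4%, 39.6 to 47.4), though PAR-CLIP offered a wider target, with a median of 385 nt against 69 nt.

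Genes differed widely in the number of nt covered by each method. Over the 1244 shared transcripts PAR-CLIP covered a median of 7.57 times the nt of HITS-CLIP (mean of replicates; median log2 ratio 2.92, interquartile range 2.00 to 3.93), and the log2 ratio of replicate 2 over replicate 1 had a median of -0.07 (-0.50 to 0.18). PAR-CLIP covered at least 8 times the nt of both replicates on 489 transcripts (39.3%), and both replicates covered more than PAR-CLIP on 5 (0.402%). Those 5 were APOA1, the main protein of high density lipoprotein, with 391 and 397 nt in HITS-CLIP against 196 in PAR-CLIP, the haemoglobin scavenger HP with 78 and 83 against 55, and WNT2B, BRAP and ZNF398, where each library covered at most 40 nt.

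Messages for secreted and cell surface proteins had the ratios nearest to 1 among transcripts with at least 3 sites in each library. The growth factor MDK had 3 sites in every library, which covered 172, 210 and 188 nt in HITS-CLIP replicates 1 and 2 and PAR-CLIP, and the highest-scoring site started at nt 399 in all 3. For F10 the covered nt were 367, 265 and 319, and for APOE, a lipoprotein ligand, 973, 787 and 905. In MDK, F10 and APOE the PAR-CLIP value lay between the replicates. C3 was covered over 4813, 4855 and 5095 nt, the iron carrier TF over 2179, 2172 and 2297 nt, and ALB (serum albumin) over 1987, 1928 and 2187 nt, and in these 3 PAR-CLIP was above both replicates by at most 1.12 times their mean. These messages were covered almost end to end by both methods, which leaves little room for a higher value. ALB had 11, 9 and 13 sites and C3 had 0, 1 and 10 in the 2 HITS-CLIP controls and the PAR-CLIP control. AHSG, a fetal plasma glycoprotein, was covered over 1228, 1249 and 1465 nt, and HLA-F, an MHC class I protein, over 236, 179 and 227 nt, with the caution that HLA genes resemble each other.

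At the other end of the range stood long messages with few HITS-CLIP sites. GCN1 was covered over 249 and 145 nt in HITS-CLIP and 6729 nt in PAR-CLIP, a 34.2-fold difference. The adiponectin receptor ADIPOR2 had 143 and 120 nt against 3224, the plasma membrane calcium pump ATP2B1 154 and 185 against 3997, and SRRM2, a scaffold protein of nuclear speckles, 420 and 184 against 6519. FAT1 had 525 and 717 nt against 13209 and MET, the receptor for hepatocyte growth factor, 275 and 282 against 5256. The transporter ABCC4 had 168 and 116 nt against 2968, and EPPK1, a plakin of the cytoskeleton, 155 and 206 against 3351. In all 8 the PAR-CLIP value was more than 8 times that of the higher replicate, and the replicates did not approach it. Of the 8, ADIPOR2, ATP2B1, FAT1, ABCC4 and MET code for membrane proteins, so the high end was not limited to cytosolic and nuclear proteins.

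Ranked by the lower count of the replicates, the 8 messages with the most HITS-CLIP sites all coded for large proteins, most of them secreted or at the cell surface. PLXNB2, the last of them, tied at 28 sites with the near-identical ER membrane proteins NOMO1 and NOMO3 and was taken for its larger PAR-CLIP coverage. APOB was covered over 7003 and 6643 nt in HITS-CLIP and 13788 in PAR-CLIP. FN1 (fibronectin) had 55 and 58 HITS-CLIP sites and 12 PAR-CLIP sites covering 4748, 4832 and 7895 nt, and A2M, a plasma protease inhibitor, 39 and 37 sites and 5 PAR-CLIP sites covering 3485, 3415 and 4574 nt. IGF2R, which carries enzymes to lysosomes, had 52, 46 and 37 sites over 3028, 2792 and 8126 nt. The basement membrane proteins AGRN and LAMC1, the semaphorin receptor PLXNB2 and the cytoskeletal SPTBN1 had between 28 and 49 sites in every library. In all 8 PAR-CLIP covered more nt than both replicates, by 1.33 times for A2M to 3.02 times for SPTBN1, with fewer sites than both replicates on APOB, FN1, IGF2R, A2M and SPTBN1.

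**Figure D4:**
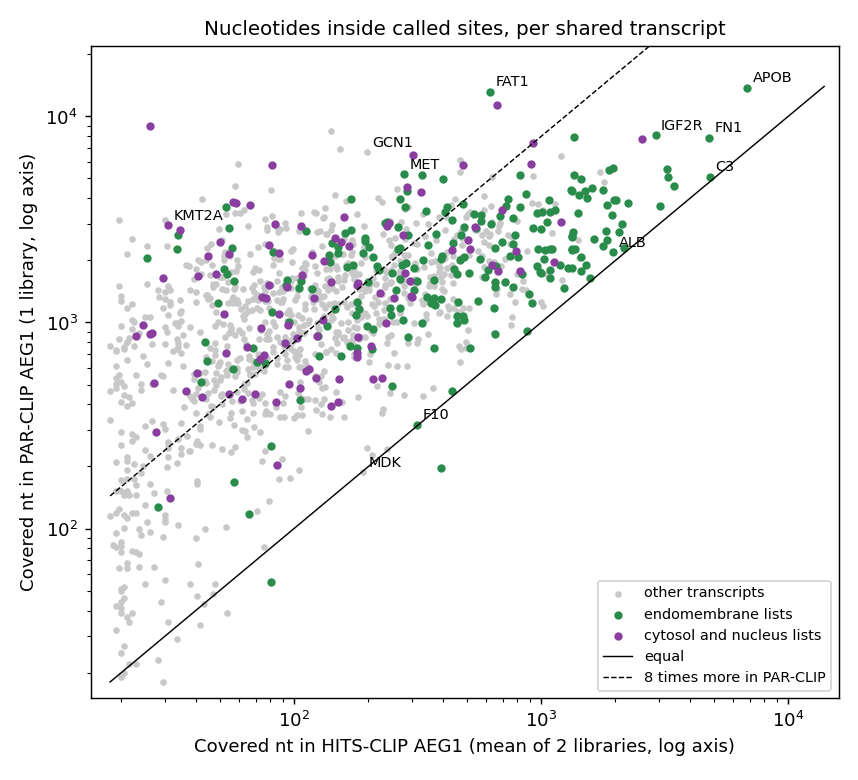
Covered nt per shared transcript in HITS-CLIP (x axis, mean of 2 replicates, log scale) against PAR-CLIP (y axis, log scale), with endomembrane and cytosol and nucleus list members coloured a solid line at equality and a dashed line at 8 times more in PAR-CLIP. Nearly all of the 1244 points lie above the line, MDK, F10, ALB and C3 lie on or near it, and GCN1 and FAT1 lie far above it.

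Within the same transcript the highest PAR-CLIP score was usually above the highest HITS-CLIP score, and this depended on how the score was read. The median difference was 1.66 on the log2 scale (interquartile range 0.71 to 2.62), and the difference between the HITS-CLIP replicates had a median absolute size of 0.50. The PAR-CLIP value was above both replicates on 994 transcripts (79.9%) and below both on 113 (9.08%). PAR-CLIP lists more and wider sites, from which a higher maximum can be drawn. The median score of each transcript differed by 0.15, and with log2 of its width taken from each score the median difference turned to -0.34. The best PAR-CLIP site at the place of the highest HITS-CLIP site was 1.09 higher for replicate 1 (1074 transcripts) and 1.00 higher for replicate 2 (1066 transcripts). Shared transcripts without a PAR-CLIP site at that place are left out of these 2 values. The scores are also not scaled by library. For all 4103 transcripts with at least 6 sites in total, 2 to the power of every score could be written as whole units of that transcript times 1 of 5 multipliers, to a relative error of at most 2e-05; the multipliers were read from the scores themselves, and the lowest is 0.943 of the highest. On the 1113 of these transcripts that are shared, units summed to 53902 and 50455 in HITS-CLIP and to 152497 in PAR-CLIP, 2.92 times the HITS-CLIP mean. What a unit stands for, and whether it is the same on every transcript, was not stated in the labels or lists.

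Of the 463 transcripts with at least 3 sites in each library, 39 (8.42%) had a lower highest score in PAR-CLIP than in both HITS-CLIP replicates. Among them 18 (46.2%) were in the endomembrane gene lists described next, as were 173 of the 463 (37.4%); those named here were chosen after their values were seen. The highest scores of APOE were 5.92 and 6.09 in HITS-CLIP and 4.08 in PAR-CLIP, and those of F10 were 4.77 and 5.47 against 3.35. For HLA-F they were 10.54 and 10.22 against 8.22 and for HLA-B 6.13 and 6.35 against 5.55. VTN, a plasma and matrix adhesion protein, had 8.58 and 8.97 against 8.10, ASGR1, the hepatocyte receptor for desialylated glycoproteins, 6.17 and 5.40 against 4.88, and GAA, the lysosomal glucosidase, 10.07 and 9.07 against 8.84. COL18A1, the collagen that yields endostatin, had 9.01 and 8.56 against 7.91. That both HITS-CLIP values lie above the PAR-CLIP value in these messages follows from how they were selected. For ASGR1 and GAA the margin was no larger than the gap between the replicates. ZFHX3, CTSS and FRAS1, in none of the gene lists, had PAR-CLIP minus mean HITS-CLIP differences of -1.74, -1.39 and -1.25. These were larger in size than those of HLA-B, VTN, ASGR1, GAA and COL18A1.

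Genes were then grouped in 17 lists by the place or role of their proteins, 8 for the secretory pathway and its organelles (together called endomembrane, 332 genes) and 7 for the cytosol, cytoskeleton and nucleus (307 genes), with mitochondrial proteins and markers of other cell types apart. Of the endomembrane genes 298 had a PAR-CLIP site and 224 had HITS-CLIP sites in both replicates, and these 224 were all shared; of the cytosol and nucleus genes 299 and 102 did. PAR-CLIP thus listed about the same number of both, and HITS-CLIP listed 75.2% of the first and 34.1% of the second, where the value over all PAR-CLIP transcripts was 15.5%. Both pools lie above the value for all transcripts; mRNA levels were not analysed here. On the shared members PAR-CLIP covered a median of 3.94 times the nt of HITS-CLIP in the endomembrane pool and 10.3 times in the cytosol and nucleus pool, against 7.57 over all shared transcripts. Among members with at least 3 sites in each library these ratios were 3.48 (173 genes) and 5.35 (29 genes), against 4.48 over all 463 such transcripts. At least 8 times the nt of both replicates was reached by 49 of 224 (21.9%) and by 52 of 102 (51.0%).

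Secreted liver proteins had the lowest covered ratio of the lists and the smallest difference of highest scores in size, though not on every measure. Of 54 genes, 40 had a PAR-CLIP site and 37 had HITS-CLIP sites in both replicates. PAR-CLIP covered a median of 1.65 times the nt of HITS-CLIP on these, and 1 of 37 reached 8 times. For the 28 with at least 3 sites in each library the ratio was 1.95, against 2.20 for 25 ER folding genes. C3, TF and ALB, where coverage by both methods left little room for a higher value, are among these proteins. The median difference of highest scores was -0.01, with 16 higher in both HITS-CLIP replicates and 16 higher in PAR-CLIP, so that 43.2% fell on the HITS-CLIP side against 9.08% of all shared transcripts. With at least 3 sites in each library the median difference was 0.21. With log2 width taken off each score it was -1.34, the largest in size of all lists. Matrix and basement membrane proteins (12 of 25 genes shared) had a median ratio of 2.83 and a score difference of 0.65, or -1.27 with log2 width taken off. On THBS1, the matrix protein thrombospondin, HITS-CLIP covered 3327 and 3180 nt and PAR-CLIP 5065.

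The other 6 lists of the secretory pathway had median ratios from 3.37 to 8.22. ER folding and quality control genes were shared in 31 of 41 cases with a median covered ratio of 3.37 (2.20 for the 25 with at least 3 sites in each library), lysosomal proteins in 29 of 38 with 3.77, and translocation and glycosylation machinery in 32 of 43 with 5.68. Plasma membrane receptors and transporters were shared in 37 of 51 cases with a ratio of 5.98, ER lipid and sterol enzymes in 22 of 42 with 6.13, and Golgi and vesicle membrane proteins in 24 of 38 with 8.22. GANAB, which trims glucose from new glycoproteins in the ER, was covered over 2202 and 2310 nt in HITS-CLIP and 3801 in PAR-CLIP. STT3A, a catalytic subunit of the enzyme that attaches sugars to proteins, had 1431 and 1252 nt against 2737, and SCD, a fatty acid desaturase of the ER, 1517 and 1208 against 5200. PSAP and GRN, precursors of lysosomal proteins, had 2132 and 1987 nt against 2761 and 1575 and 1321 against 1781. On GANAB, STT3A, SCD and PSAP the replicates were closer to each other than to PAR-CLIP, and on GRN replicate 1 was closer to PAR-CLIP. The near-identical NOMO1 and NOMO3 cannot be separated with certainty.

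Most cytosolic and nuclear lists had few members in HITS-CLIP and ratios above the 7.57 of all shared transcripts, but these ratios rest on few members and on lightly covered ones. Of 44 proteasome and chaperone genes all had a PAR-CLIP site and 9 had HITS-CLIP sites in both replicates, with a median covered ratio of 27.6, and the 1 of them with at least 3 sites in each library had a ratio of 5.00. Nuclear RNA-binding proteins were shared in 13 of 45 cases with a ratio of 21.2, and all 13 reached 8 times; the 3 with at least 3 sites had a median of 14.0. The ratio was 14.0 for 7 of 45 chromatin factors, 12.7 for 12 of 40 metabolic enzymes, 10.3 for 11 of 44 translation factors and tRNA synthetases, and 8.54 for 21 of 40 cytoskeletal proteins. With at least 3 sites in each library it was 5.66 for 4 metabolic enzymes, 9.04 for 6 translation factors and 5.09 for 13 cytoskeletal proteins, and no chromatin factor was left. Without HITS-CLIP replicate 1 and without replicate 2, the median log2 ratio moved from 3.81 to 4.69 and 4.89 for chromatin factors. It moved from 3.37 to 3.98 and 4.58 for translation factors, and from 3.09 to 3.89 and 3.10 for cytoskeletal proteins. Leaving out a replicate also changes which members count as shared, so these values do not cover the same genes. Nuclear-encoded mitochondrial proteins, in neither pool, had 9 of 52 shared and a ratio of 16.8, and the 1 with at least 3 sites in each library had 7.38. On SUZ12, KMT2A and ARID1B, all chromatin regulators, each HITS-CLIP replicate had 1 site of 27 to 45 nt, and PAR-CLIP had 8, 38 and 4 sites over 567, 2965 and 295 nt. On each of these messages 0% of the HITS-CLIP nt of either replicate lay in PAR-CLIP sites, so the methods met nowhere on them. On FASN, the cytosolic fatty acid synthase, HITS-CLIP covered 1095 and 763 nt and PAR-CLIP 7453. Cytosolic ribosomal protein messages had 29 of 49 shared and a ratio of 5.22, below those of 4 secretory pathway lists; RPL13A, for example, was covered over 241 and 229 nt against 991. All these medians describe the members that HITS-CLIP reached, which is at most 13 genes for all but the ribosomal and cytoskeletal lists.

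Each list can also be given as a share of its library's own units, which leaves out how much the library holds in all. These shares add units of different transcripts, and whether a unit stands for the same amount on each was not tested. They are a description only. The least number of 6 sites counts all libraries together, so a transcript could enter through PAR-CLIP alone. Over the 4103 transcripts with units, secreted liver proteins took 23.5% and 24.4% of the units of the HITS-CLIP replicates and 3.48% of those of PAR-CLIP. The endomembrane pool took 58.9% and 60.0% against 19.4%, and the cytosol and nucleus pool 4.76% and 4.28% against 11.9%. Matrix proteins took 5.36% and 5.17% against 1.22%, and ER folding genes 8.78% and 8.88% against 2.80%. For nuclear RNA-binding proteins the shares were 0.414% and 0.269% against 2.22%, and for chromatin factors 0.0759% and 0.0312% against 1.10%. For every one of the 8 endomembrane lists both HITS-CLIP shares were above the PAR-CLIP share, and for every one of the 7 cytosol and nucleus lists both were below it.

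**Figure D5:**
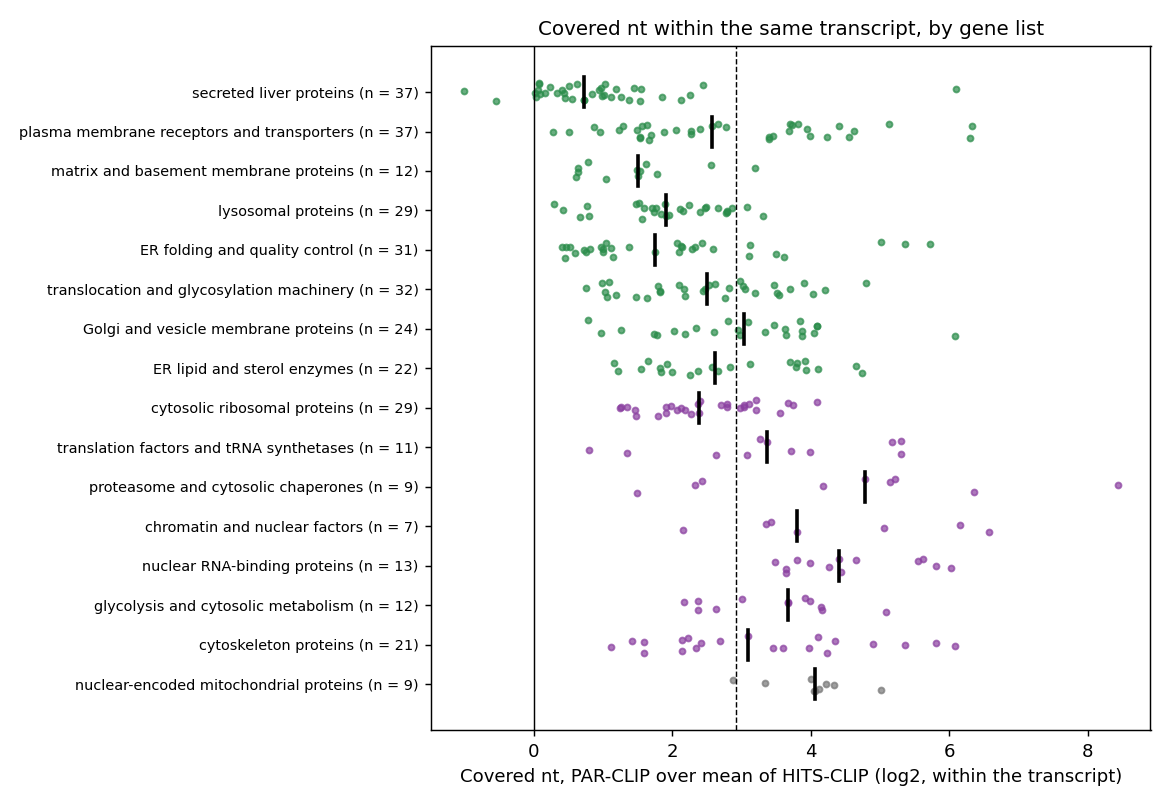
Log2 ratio of covered nt, PAR-CLIP over HITS-CLIP (x axis, log2), with 1 point per shared member of each gene list (rows, with the number shared), a bar at the median of each list and a dashed line at the median over all 1244 shared transcripts. The median of secreted liver proteins lies at 0.72, that of proteasome and cytosolic chaperones at 4.78 and that of all shared transcripts at 2.92.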

How the data were processed

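The series was deposited as 1 site list per library, without a header: RefSeq mRNA accession, gene symbol, start, end and a score. Per the labels' protocols, RNA was trimmed with RNase I, precipitated through the HA tag and sequenced as 50 nt single reads. The submitters' processing notes name Bowtie; its version, the reference, the site caller, its threshold and any use of the controls are stated in none of the sources used here. The scores that the authors deposited behave as log2 values, with a normalization that no source states. Starts count from 0 in the lists and are printed from 1.

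Symbols were updated from the RefSeq gene table for 8145 of 8204 transcripts by accession; 8 kept the symbol of the list. Overlap meant at least 1 shared nt, covered nt were the nt inside sites, and a score call needed a gap above 0.01. Units were sought in transcripts with at least 6 sites. A list shows no depth, so its precision is known only from counts of sites. No test across genes was run. Python 3.11.15 with pandas 2.3.3 and scipy 1.17.1 was used, and the steps were tested on simulated sites.

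Members, lists and tests were chosen with earlier results of these data known. Genes were named by rule: the 8 lowest and 8 highest covered ratios and the 8 with most HITS-CLIP sites (at least 3 sites in each library), the 8 largest found by 1 method alone, the 3 most covered in HITS-CLIP of each list, and MTDH and SND1; other names were chosen after their values were seen. Alternatives left out each HITS-CLIP replicate or changed the overlap, the width and score filters, the least number of sites, the treatment of control transcripts and the form of the score. Results on some genes are not reported here. Planned protein features and transcript lengths were not analysed here.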

Additional observations from a re-analysis of the deposited data

Results flagged for a closer look

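On 2 messages the methods moved in opposite directions against their own unirradiated controls in the number of sites. On C3 the difference between PAR-CLIP AEG1 and its control was -6 sites, as AEG1 had 4 and the control 10, while the HITS-CLIP AEG1 replicates had 24 and 21 and their controls 0 and 1. On EEF1A1, a translation elongation factor, it was -4 sites (4 against 8), with 12 and 12 against 1 and 0. Covered nt did not show this on C3, of which PAR-CLIP AEG1 covered 5095 nt and its control 632. The difference between the methods was not tested, since PAR-CLIP has 1 library of each kind.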

How the results depend on the processing

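The limits are those of 1 PAR-CLIP library, lists without read counts and a score of unstated meaning. No paired analysis was possible because PAR-CLIP AEG1 has 1 library, so the methods share fewer than 2 replicate numbers. Transcript length and protein features could not be used. The score forms other than the highest and the median, the place-matched score, and the changes to the gene pools were chosen after seeing the data.

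Leaving out a replicate also changes the set of shared transcripts, from 1244 to 1572 without replicate 1 and to 1722 without replicate 2. The PAR-CLIP share of HITS-CLIP transcripts was 92.4% to 92.5% without 1 replicate, 97.1% with at least 2 sites in each library and 93.9% without control transcripts. The HITS-CLIP share of PAR-CLIP transcripts was 19.6% to 21.5% without 1 replicate and 9.48% with at least 2 sites. The share of HITS-CLIP sites met by PAR-CLIP (90.3% over both replicates) was 90.2% to 90.4% per replicate, 89.7% when 50% of the site had to be met, 93.7% above 25 nt, 81.4% above each library's median score and 89.3% without control transcripts. The share of PAR-CLIP sites met by HITS-CLIP was 17.6% to 18.2% with 1 replicate, 13.5% at 50% overlap, 27.9% above 25 nt and 27.5% above the median score. The filter on the median score sets scores of different transcripts against each other. It can therefore select transcripts by their constant rather than the stronger sites of each.

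The median log2 ratio of covered nt (2.92) was 3.13 to 3.16 with 1 replicate, 2.87 above 25 nt, 2.16 with at least 3 sites and 2.98 without control transcripts. In the same order of settings the log2 width ratio (0.95) was 0.99 to 1.00, 0.89, 0.97 and 0.93, and the difference of highest scores (1.66) was 1.66 to 1.67, 1.79, 1.68 and 1.68. That difference was 0.15 for the median score, 2.54 for summed scores, 1.04 at matched places that had a PAR-CLIP site and -0.34 after log2 width was taken off. Highest-scoring sites met in 42.8% to 45.5% of transcripts with 1 replicate, against 46.7%. Weighting each site once put the median position at 0.400 in HITS-CLIP and 0.522 in PAR-CLIP; leaving out a replicate gave 0.428 to 0.435 and 0.548 to 0.551, and sites above 25 nt gave 0.538 in PAR-CLIP. HITS-CLIP covered more nt on 11 to 14 transcripts with 1 replicate, on 11 by the replicate mean and on 2 above 25 nt, against 5.

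In the endomembrane pool the log2 covered ratio (1.98) was 2.05 to 2.15 with 1 replicate, 1.80 with at least 3 sites, 2.13 without control transcripts and 2.25 without secreted liver proteins. Its score difference (1.57) was 1.52 to 1.58 with 1 replicate, 1.45 summed, 1.84 without secreted liver proteins and -0.74 after log2 width was taken off. In the cytosol and nucleus pool the covered ratio (3.36) was 3.74 to 3.79 with 1 replicate, 3.11 above 25 nt, 2.42 with at least 3 sites and 3.47 without control transcripts, and the score difference was 2.85 to 2.93, 3.06 above 25 nt, 3.56 summed and 0.17 after log2 width was taken off.

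Taking log2 width off also turned the score difference of 9 lists below 0: -0.68 for plasma membrane proteins, -1.27 for matrix, -0.81 for lysosomal, -0.79 for ER folding, -0.31 for translocation, -0.47 for Golgi, -0.24 for ER lipid, -0.13 for chromatin and -0.32 for cytoskeleton genes. The cause was not tested.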
